A study of Coilia nasus with 12 samples.

Results

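The molecular chaperones examined here are the unigenes (assembled transcript units) whose annotated gene name belongs to the HSP90, HSP70 and HSP110, HSP60 and HSP10, CCT, small heat shock or DNAJ (HSP40) families, the heat shock factors, or the co-chaperones BAG, ST13, STIP1 and AHSA1. The rule itself used the gene name alone, but it was chosen with earlier results of these data known. It took in 152 of the 63567 unigenes of the assembly, carrying 78 gene names. The families meant were those of the cytosol and mitochondrion, but the name rule also took in chaperones of the endoplasmic reticulum (ER). By the compartment where each product is known to work in vertebrates, 113 members were cytosolic or nuclear, 22 belonged to the ER, 13 to the mitochondrion and 4 were not assigned. This division by compartment was made after values had been seen.

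The samples were stomachs (gastric mucosa) of 12 individual *Coilia nasus*, an anchovy of estuaries and coastal rivers. The labels give 2 groups, food intake (6 fish) against no food intake (6 fish), and each library came from the stomach of 1 fish. Nothing more is given in the labels on age, sex, what was eaten or the time since the meal. RNA was sequenced as paired reads on an Illumina HiSeq instrument, and expression is given per unigene in TPM, a level relative to all transcripts of the library and already divided by transcript length.

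Chaperones bind proteins that are not yet, or no longer, correctly folded. HSP70 proteins hold short exposed stretches and are driven by J-domain partners of the DNAJ family, HSP90 acts later on a narrower set of clients such as kinases and receptors, and the ring-shaped CCT chaperonin encloses actin and tubulin. HSP60 with HSP10 encloses proteins inside mitochondria, HSPA5 (BiP) and HSP90B1 (GRP94) serve secreted proteins in the ER, and heat shock factors switch on many of these genes under stress. The gastric gland cells of fish make large amounts of pepsinogen, a protein folded in the ER before secretion.

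The RNA was that of stomach, with summed TPM of a list of gastric gland genes of 108903 to 372235 in food-intake fish and 58293 to 367855 in no-food-intake fish. One library stood apart. In food intake 6, 64.2% of TPM came from 7 unigenes called ribosomal-RNA-like because they rise and fall with 1 of them, annotated ART2. The remaining fish of its group had 4.34% to 16.4% and no-food-intake fish 6.12% to 26.9%. For some unigenes and classes, values are therefore also given without food intake 6 or after rescaling without those 7 unigenes. The libraries also fell into a pair of sets by the presence of 9 chicken mitochondrial unigenes, which were above 0 TPM in 3 food-intake libraries (1, 5 and 6) and 4 no-food-intake libraries (1, 2, 4 and 6; together the first set) and at 0 in the other 5 (the second set, with 3 food-intake and 2 no-food-intake libraries). What these sets are is not stated in the labels, and fold changes are given within each where they differ. The median log2 fold change over all tested unigenes was itself -0.19 within the first set and 0.18 within the second, against -0.04 over all libraries, and it was 0.06 both without food intake 6 and after the rescaling, so such values are to be read against these. TPM holds no record of read depth, so the counting error behind a low value is unknown. In whole-tissue RNA, fewer cells of a type and less RNA per cell cannot be told apart.

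No chaperone passed the test between food-intake and no-food-intake fish after adjustment over all unigenes. Of the 152 members, 122 had 1 TPM or more in 6 libraries and entered the test, run with limma on log2(TPM + 1). The number past an adjusted p of 0.05 was 0, and over all 40142 unigenes tested it was also 0 (0.0%). The smallest adjusted p was 0.774 among members and 0.0749 over all unigenes. At an unadjusted p under 0.05, 9 members were higher in food-intake fish and 3 were lower, where 2.48% of all tested unigenes were higher and 3.79% lower. In none of the 122 did the groups separate fully, as was the case for 0.0249% of all unigenes with food intake above and 0.142% with food intake below. Several unigenes can be pieces of 1 gene, so counts of unigenes are not counts of genes. In the assembly, 58 of the 152 members share a cluster of related transcripts with another member. Summed by gene name, 34 of the 68 names fitted had a log2 fold change (food intake over no food intake) above 0 and 34 below. Their median was 0.009.

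Signs of the log2 fold changes leaned upward in ER and mitochondrial members and lay near those of all unigenes in cytosolic ones. At a limma unadjusted p under 0.05, 6 ER members and 1 mitochondrial member were higher. Of cytosolic members 2 were higher and 3 lower. Over all unigenes 2.48% were higher and 3.79% lower. The 22 ER members carried 12 gene names, the 13 mitochondrial members 7 and the 113 cytosolic members 55. Of 20 tested ER members, 16 had a log2 fold change (food intake over no food intake) above 0, where 46.0% of all unigenes did, and their median was 0.47, against -0.04 over all unigenes. Of 13 mitochondrial members 11 were above 0, with a median of 0.46, whereas of 86 cytosolic members 36 were above 0 and 50 below (54.0% of all unigenes were below 0), with a median of -0.09. ER members summed to 52.1 to 1292 TPM with a median of 508 in food-intake fish, against 85.2 to 236 TPM with a median of 154 in no-food-intake fish. Cytosolic members summed to 1741 to 7691 TPM with a median of 3943 in food-intake fish, against 5235 to 11060.1 TPM with a median of 6464 in no-food-intake fish. All members together came to 4983 ± 2218 TPM in food-intake fish and 7188 ± 2178 TPM in no-food-intake fish (SD, n = 6 each). The ER values of 5 food-intake fish lay above the highest no-food-intake value and that of food intake 6 below the lowest, whereas cytosolic values of food intake 2, 3, 5 and 6 lay below the lowest no-food-intake value and those of food intake 1 and 4 among them.

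**Figure D1:**
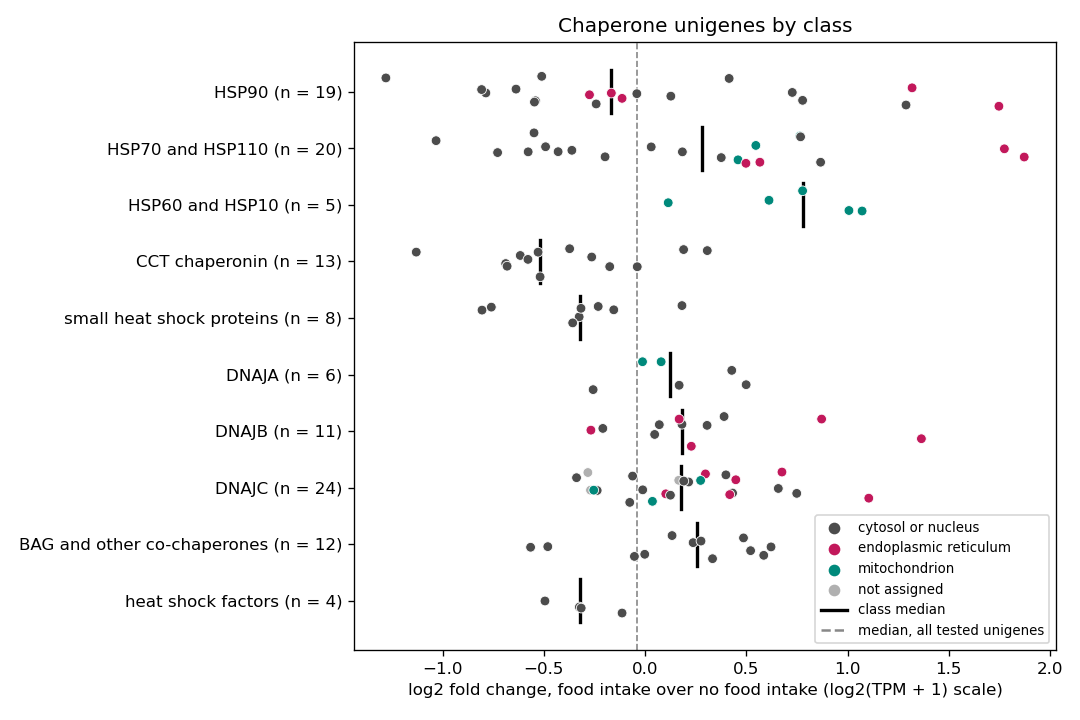
Log2 fold change (food intake over no food intake, log2(TPM + 1) scale, x axis) of each of the 122 tested chaperone unigenes by class (y axis), coloured by compartment; black bars are class medians and the dashed line the median of all 40142 tested unigenes (-0.04). All 4 tested ER members of the HSP70 class and all 6 of the DNAJC class lie right of 0, those of the HSP90 class lie on both sides (2 above 0 and 3 below), and CCT and small heat shock members mostly to the left.

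Because RNA of other kinds changes every TPM value of a library, shares of chaperone TPM within a library were also taken. ER members made up 2.87% to 18.8% with a median of 11.2% in food-intake fish, against 1.22% to 2.98% with a median of 2.07% in no-food-intake fish. Food intake 6 had the lowest of the food-intake shares, and it lay below the highest no-food-intake share, 2.98% in no food intake 4. The CCT chaperonin, by contrast, held nearly the same share of chaperone TPM in both groups, 7.69% ± 1.28 in food-intake fish and 7.66% ± 0.601 in no-food-intake fish (SD, n = 6 each). The HSP90 and HSP70/HSP110 classes together made up 61.3% to 87.0% in food-intake fish and 52.4% to 87.2% in no-food-intake fish.

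**Figure D2:**
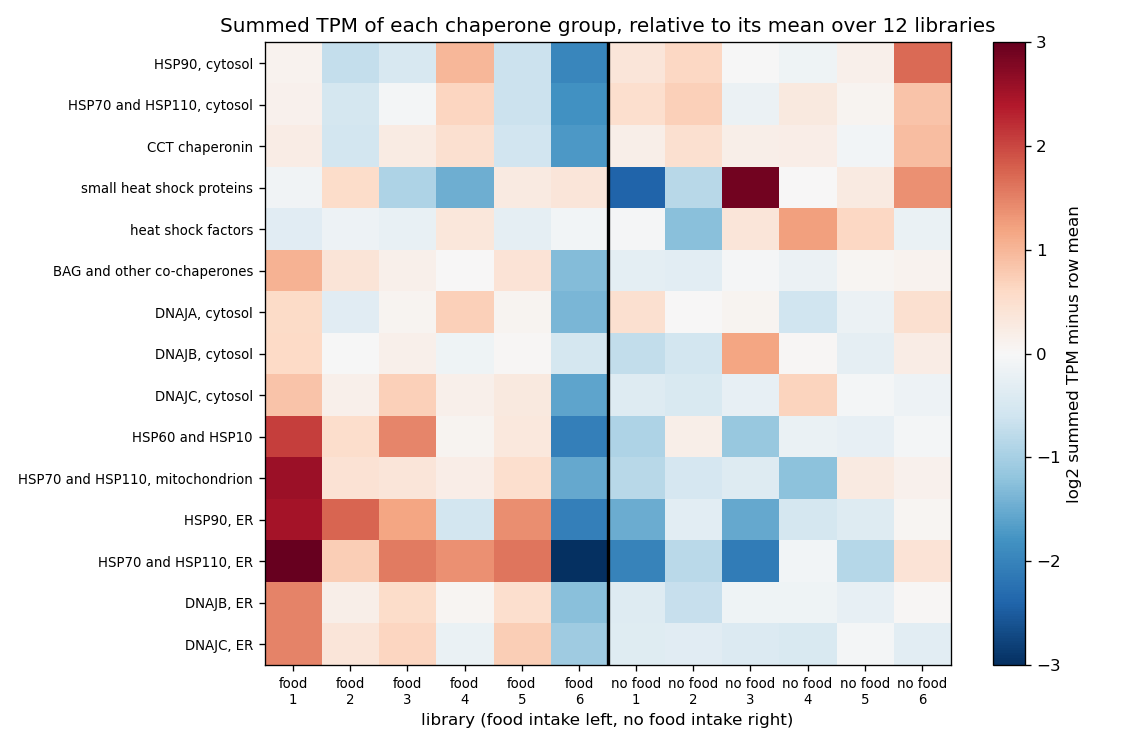
Log2 of the summed TPM of each chaperone group minus its mean over 12 libraries (colour), with groups as rows and libraries as columns, food intake left of the line and no food intake right. Food intake 1 is high and food intake 6 low in the ER and mitochondrial groups, no food intake 6 is high in cytosolic HSP90, and no food intake 3 is high in small heat shock proteins.

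HSP90AB1, the constitutively made cytosolic HSP90, was the most abundant single gene name of the class and was carried by 10 unigenes, 9 of them tested. Its summed level was 354 to 2801 TPM with a median of 933 in food-intake fish, against 1266 to 4573 TPM with a median of 1678 in no-food-intake fish. The mean was 1220.5 ± 851 TPM in food-intake fish and 2121 ± 1242 TPM in no-food-intake fish (SD, n = 6 each). No food intake 6 was highest of the 12. Food intake 6, where ribosomal-RNA-like unigenes held 64.2% of TPM, was lowest. The groups overlapped: food intake 4, at 2801 TPM, lay above 5 of the no-food-intake libraries. HSP90AB1 held 19.5% to 34.8% of all chaperone TPM in food-intake fish and 19.8% to 40.3% in no-food-intake fish.

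Of the 10, 4 unigenes carried 96.9% to 99.9% of HSP90AB1 TPM in every library. The most abundant, DN26217_c2_g4 (363 bases), ranged over 150.1 to 1284 TPM with a median of 439 in food-intake fish, against 459.6 to 2138 TPM with a median of 768 in no-food-intake fish. Its log2 fold change was -0.81 ± 0.51 (SE; limma unadjusted p = 0.129), with 5 of 6 food-intake libraries below the no-food-intake median. DN34689_c2_g3 (1084 bases) ranged over 109.5 to 759.9 TPM with a median of 277 in food-intake fish, against 445 to 1458 TPM with a median of 631 in no-food-intake fish. It had the smallest p of any chaperone, with a log2 fold change of -1.28 ± 0.47 (limma unadjusted p = 0.0139, adjusted p = 0.774), and food intake 4 was the only food-intake library above the no-food-intake median. DN32246_c1_g1 (1028 bases) and DN26217_c2_g1 (1737 bases) had log2 fold changes of -0.54 ± 0.56 and -0.64 ± 0.50, each with 4 of 6 food-intake libraries below the no-food-intake median.

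The 4 did not keep 1 proportion. DN34689_c2_g3 held 22.3% to 37.9% of HSP90AB1 TPM in food-intake fish and 24.8% to 53.3% in no-food-intake fish, and DN32246_c1_g1 held 12.5% to 25.9% in food-intake fish and 8.35% to 25.7% in no-food-intake fish. No food intake 4 had both the highest share of DN34689_c2_g3 and the lowest share of DN32246_c1_g1. The difference also depended on the library set. For DN34689_c2_g3 the log2 fold change was -1.95 in the first set and -0.41 in the second. For DN26217_c2_g4 it was -1.43 in the first set and 0.007 in the second.

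The other 6 HSP90AB1 unigenes each averaged 0.918 to 3.52 TPM over the 12 libraries. DN32246_c1_g9 (416 bases) ranged over 2.29 to 7.53 TPM with a median of 3.88 in food-intake fish, against 0.34 to 5.13 TPM with a median of 2.92 in no-food-intake fish, with a log2 fold change of 0.73 ± 0.39 (limma unadjusted p = 0.0784), opposite in sign to the abundant unigenes. DN34689_c2_g4 (588 bases) and DN26217_c2_g2 (381 bases) had log2 fold changes of 0.41 and 0.13. DN34689_c2_g6 (276 bases), at -0.51, was listed at 0 in 2 food-intake libraries, both of the second set, and DN26217_c2_g8 (275 bases), at -0.24, in 3 food-intake and 2 no-food-intake libraries, which are the whole second set. DN34689_c2_g13 (232 bases) did not reach 1 TPM in 6 libraries and was not tested; it was listed at 0 in 2 food-intake and 3 no-food-intake libraries. These last 3 and DN26217_c2_g2 had a best database match outside the bony fishes.

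**Figure D3:**
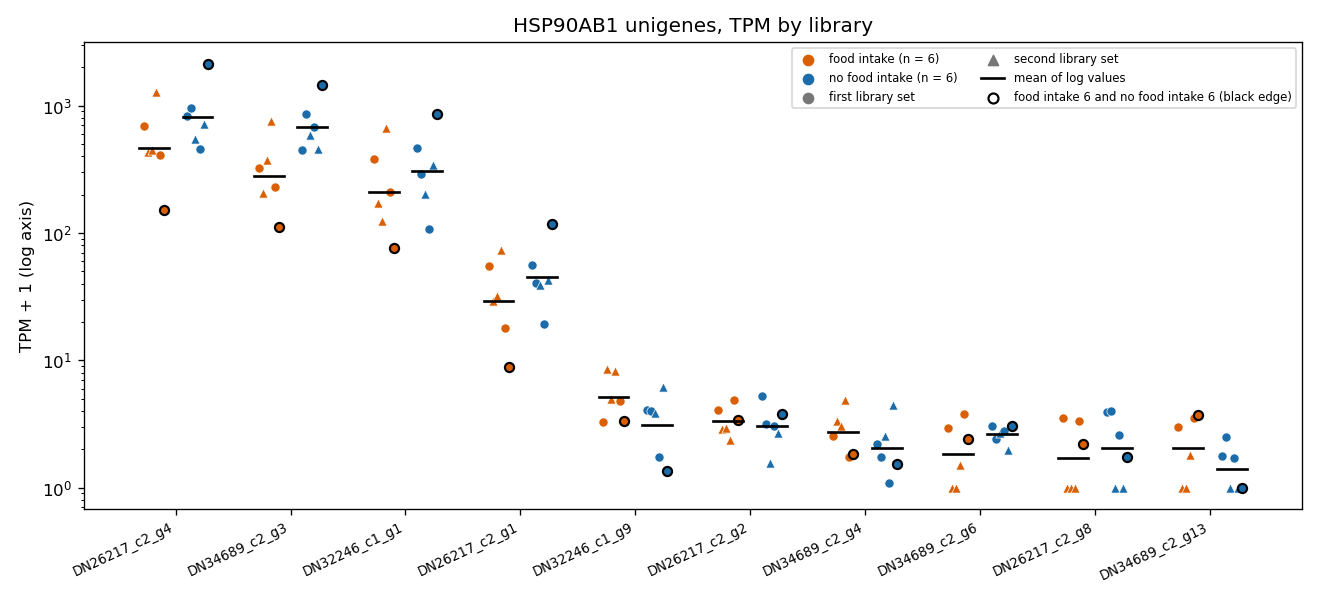
TPM + 1 (log axis) of the 10 HSP90AB1 unigenes in each library, food intake (orange) left of no food intake (blue), with circles for the first library set, triangles for the second and bars for the mean of log values. In the 4 abundant unigenes food intake 6 is the lowest library and no food intake 6 the highest.

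HSP90AA1, the stress-inducible cytosolic HSP90, was far less abundant per transcript length, with a summed level of 6.09 to 53.8 TPM with a median of 14.5 in food-intake fish, against 3.02 to 12.2 TPM with a median of 9.86 in no-food-intake fish. Its unigene DN34689_c2_g2 ranged over 2.08 to 31.3 TPM with a median of 5.92 in food-intake fish, against 0.35 to 5.38 TPM with a median of 2.71 in no-food-intake fish. The log2 fold change was 1.29 ± 0.52 (limma unadjusted p = 0.0236, adjusted p = 0.774), and 5 of 6 food-intake libraries lay above the no-food-intake median. Food intake 1 had the highest summed HSP90AA1 level, 53.8 TPM, and food intake 3 the next, 20.9 TPM. With each library left out, the log2 fold change of DN34689_c2_g2 was 0.90 to 1.58. Its limma unadjusted p was not under 0.05 without food intake 1, without food intake 3 or without no food intake 1. This unigene belongs to the same assembly component (a cluster of related transcripts) as 4 of the HSP90AB1 unigenes, DN34689_c2_g3 among them, and how the authors' counting divided reads between them is not given in the sources used here. The opposite signs of DN34689_c2_g2 and DN34689_c2_g3 are therefore uncertain.

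The cytosolic HSP70s were dominated by the constitutive forms named hsc70, hsc71 and HSPA8. Their summed level was 666 to 3871 TPM with a median of 2019 in food-intake fish, against 2151 to 4424 TPM with a median of 3229.8 in no-food-intake fish. The hsc70 unigene DN35249_c0_g1 had the highest level of any chaperone unigene, at 267, 822 and 1407 TPM in food-intake fish (lowest, median and highest library) and 1073, 1537 and 2153 TPM in no-food-intake fish. Its log2 fold change was -1.03 ± 0.45 (limma unadjusted p = 0.0334, adjusted p = 0.774), and all 6 food-intake libraries lay below the no-food-intake median although the ranges overlapped. Within the library sets it was -1.76 in the first and -0.12 in the second, and it was -0.73 without food intake 6.

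The next most abundant, the Hspa8 unigene DN35429_c1_g5, had a log2 fold change of -0.58 ± 0.47 and the hsc71 unigene DN35249_c0_g5 one of -0.20 ± 0.52. The best database match of this Hspa8 unigene was a mammal. In the second library set these were 0.30 and 0.31, and with quantile normalization they were 0.04 and 0.03, so the sign of both depended on the setting. Unigenes of hsc70, hsc71, hsp70 and HSPA8 shared assembly components, so reads could have been split between them. The unigenes named hsp70, a name used for the heat-inducible forms, summed to 28.6 to 55 TPM with a median of 43 in food-intake fish, against 13.3 to 158 TPM with a median of 92.2 in no-food-intake fish. No food intake 2, 4 and 6 were high and the other 9 libraries stood at 55.0 TPM or below.

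HSPA4 (HSP110), which releases nucleotide from HSP70, had the opposite sign. Its unigene DN34187_c4_g1 ranged over 0.26 to 9.19 TPM with a median of 2.06 in food-intake fish, against 0.27 to 1.57 TPM with a median of 0.68 in no-food-intake fish, and its log2 fold change was 0.87 ± 0.41 (limma unadjusted p = 0.0468, adjusted p = 0.789). The 2 HSPA4 unigenes together summed to 1.62 to 35.8 TPM with a median of 10.5 in food-intake fish, against 3.72 to 7.4 TPM with a median of 4.71 in no-food-intake fish. Food intake 1 was highest by a wide margin and food intake 6 lowest. Over the 13 tested cytosolic HSP70 and HSP110 unigenes, 5 log2 fold changes were above 0 and 8 below, with a median of -0.36 (-0.56 in the first library set and 0.30 in the second).

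All 8 subunits of the CCT chaperonin were found, and the most abundant unigene of each had a log2 fold change below 0, as did 54.0% of all unigenes. The class summed to 130.1 to 592 TPM with a median of 396 in food-intake fish, against 406 to 813 TPM with a median of 487 in no-food-intake fish. CCT4 (DN30782_c1_g2) ranged over 12.8 to 93.9 TPM with a median of 45.8 in food-intake fish, against 64.3 to 159 TPM with a median of 79.6 in no-food-intake fish. Its log2 fold change was -1.13 ± 0.43 (limma unadjusted p = 0.0179, adjusted p = 0.774). CCT4 had the only p under 0.05 of the 13 tested CCT unigenes, where 3.79% of all unigenes were lower at that threshold. Of its 6 food-intake libraries, only food intake 4 lay above the no-food-intake median. The other subunits, TCP1, CCT2, CCT3, CCT5, CCT6, CCT7 and CCT8, had log2 fold changes of -0.52, -0.58, -0.37, -0.69, -0.53, -0.68 and -0.62, with SEs of 0.37 to 0.42.

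The subunits shared their high and low libraries. Food intake 6 was lowest in all 8 and no food intake 6 was highest in 6 of 8, while food intake 4, at 592 TPM for the whole class, lay above 4 of the 6 no-food-intake libraries. In food intake 6 the ribosomal-RNA-like unigenes held 64.2% of TPM, which lowers every other value of that library. Its CCT share of chaperone TPM, 7.17%, lay inside the range of the other food-intake fish, 6.96% to 10.3%. The median over the 13 tested CCT unigenes was -0.52, and it was -0.996 in the first library set, which holds both extreme libraries, and 0.04 in the second, below the median of all unigenes in each. In the second set alone the log2 fold changes of TCP1, CCT2, CCT3, CCT5 and CCT6 were 0.19, 0.04, 0.20, 0.10 and 0.04. Those of CCT4, CCT7 and CCT8 stayed below 0, at -0.25, -0.06 and -0.18. Without food intake 6 the class median was -0.28, with 10 of 13 below 0. After rescaling without the ribosomal-RNA-like unigenes it was -0.37, with 11 of 13 below 0.

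**Figure D4:**
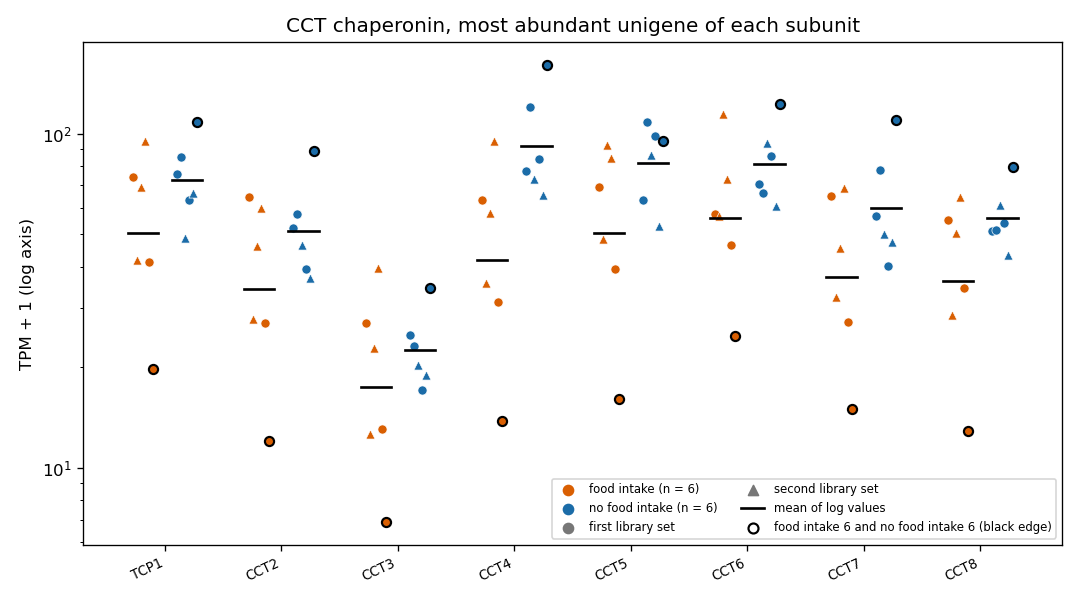
TPM + 1 (log axis) of the most abundant unigene of each of the 8 CCT subunits in each library, food intake (orange) left of no food intake (blue), circles and triangles for the first and second library set and bars for the mean of log values. Food intake 6 is the lowest point of every subunit and the 2 groups overlap in all 8.

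Small heat shock proteins hold unfolded proteins without using ATP, and several are made mainly in muscle. HSPB1 was their main form, and its unigene DN32850_c1_g2 ranged over 63.8 to 251 TPM with a median of 177 in food-intake fish, against 23 to 1519.5 TPM with a median of 169 in no-food-intake fish. No food intake 3 was the highest library, more than 3 times the next, no food intake 6 at 480.0 TPM. The summed TPM of a smooth muscle marker list was 2968 to 7154 in food-intake fish, against 28524 in no food intake 3 and 1664 to 6998 in the other no-food-intake fish; its part in the HSPB1 values was not tested. The log2 fold change of DN32850_c1_g2 was -0.32 ± 0.77 (limma unadjusted p = 0.686) with all libraries and 0.30 without no food intake 3.

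The other small heat shock proteins were also uneven across fish. The muscle form HSPB7 (DN29859_c1_g2) ranged over 5.75 to 24.3 TPM with a median of 14.7 in food-intake fish, against 2.08 to 61.3 TPM with a median of 7.89 in no-food-intake fish, with no food intake 3 and 6 highest. The inducible hsp30 (DN29784_c0_g1) stood at 62.2 and 80.1 TPM in no food intake 2 and 4 and at 13.1 TPM or below in the other 10 libraries. For hspb11 (DN26092_c0_g1), a small heat shock protein in zebrafish, the values were 2.13, 5.86 and 7.76 TPM in food-intake fish (lowest, median and highest library) and 0.88, 12.9 and 29.7 TPM in no-food-intake fish, and the log2 fold change was -0.81 ± 0.56 (limma unadjusted p = 0.169). Of 8 tested members 7 were below 0 (54.0% of all unigenes), but only 4 without no food intake 3.

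The heat shock factors, the transcription factors of the heat shock response, were represented by 4 unigenes. All had a log2 fold change below 0 (54.0% of all unigenes) and none a p under 0.05. The HSF1 unigenes DN31847_c2_g2 and DN28859_c3_g8 stood at -0.32 ± 0.30 and -0.33 ± 0.28, and the HSF2 unigenes DN27445_c1_g2 and DN34027_c6_g1 at -0.11 ± 0.42 and -0.49 ± 0.33. HSF1 summed to 1.65 to 6.59 TPM with a median of 3.39 in food-intake fish, against 2.71 to 6.42 TPM with a median of 6 in no-food-intake fish. HSF2 was higher per length, at 19.5 to 34 TPM with a median of 25.5 in food-intake fish, against 10.9 to 69.7 TPM with a median of 30.5 in no-food-intake fish, and no food intake 4 was its highest library. Food intake 6 was the lowest library in 3 of the 4 unigenes, and in the most abundant, HSF2 DN27445_c1_g2, it stood at 27.8 TPM, inside the range of the other food-intake fish.

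The co-chaperones that join HSP70 to HSP90 had small differences. STIP1 (Hop), which bridges the 2 chaperones, ranged over 2.26 to 22.6 TPM with a median of 10.3 in food-intake fish, against 6.1 to 8.57 TPM with a median of 7.07 in no-food-intake fish (DN27130_c3_g2; log2 fold change 0.33 ± 0.38). ST13 (Hip), which steadies the ADP-bound HSP70, had a log2 fold change of 0.13 ± 0.34 and averaged 10.6 ± 4.65 TPM in food-intake fish and 8.9 ± 2.18 TPM in no-food-intake fish (SD, n = 6 each). BAG6, which guards membrane proteins before insertion, was above 0 in all 5 of its unigenes, with DN33162_c0_g5 at 0.62 ± 0.35 (limma unadjusted p = 0.0917) and DN30237_c0_g1 at 0.28 ± 0.30. These 5 carry 1 gene name and do not count as separate genes. BAG3, which couples HSP70 to autophagy, had the opposite sign, and DN24372_c0_g1 ranged over 0.43 to 1.37 TPM with a median of 1.02 in food-intake fish, against 0.47 to 3.87 TPM with a median of 1.97 in no-food-intake fish, with all 6 food-intake libraries below the no-food-intake median (log2 fold change -0.57 ± 0.32, limma unadjusted p = 0.0963). The BAG and co-chaperone class had a median of 0.26 over 12 tested unigenes, 0.09 without food intake 1 and 0.53 without food intake 6.

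Of the cytosolic J-domain proteins, which bring clients to HSP70, none had a p under 0.05. The most abundant, DNAJA2 (DN35350_c3_g6), averaged 31.4 ± 13.1 TPM in food-intake fish and 36.9 ± 13.4 TPM in no-food-intake fish (SD, n = 6 each; log2 fold change -0.26 ± 0.37), and its second unigene DN30709_c5_g5 stood at 0.50 ± 0.32. DNAJA1 (DN27645_c0_g5) and DNAJA4 (DN32284_c1_g2) had log2 fold changes of 0.43 ± 0.41 and 0.17 ± 0.45, and both were below 0 in the first library set. DNAJB1 (DN29353_c4_g2), the classical heat-inducible HSP40, ranged over 0.37 to 3.44 TPM with a median of 1.23 in food-intake fish, against 0.44 to 1.36 TPM with a median of 0.66 in no-food-intake fish (log2 fold change 0.39 ± 0.32). DNAJB6 (DN30414_c0_g2) stood at 0.07 ± 0.29 and DNAJB5 (DN33524_c1_g2) at -0.21 ± 0.45, or 0.23 without no food intake 3, where DNAJB5 reached 21.6 TPM.

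In the DNAJC class, the cysteine string protein DNAJC5, which works on secretory vesicles, ranged over 1.84 to 13.9 TPM with a median of 9.91 in food-intake fish, against 2.39 to 5.81 TPM with a median of 4.84 in no-food-intake fish (DN33001_c1_g5), with 5 of 6 food-intake libraries above the no-food-intake median and food intake 6 lowest of all. Its log2 fold change was 0.75 ± 0.39 (limma unadjusted p = 0.0691), and that of the related DNAJC5B (DN27198_c3_g1) was 0.66 ± 0.36 (limma unadjusted p = 0.0833). The ribosome-bound DNAJC2 (DN28272_c1_g1) ranged over 0.67 to 24.7 TPM with a median of 7.74 in food-intake fish, against 2.28 to 20.1 TPM with a median of 4.51 in no-food-intake fish. Food intake 3 and no food intake 4 were its highest libraries, so its spread did not follow the groups (log2 fold change 0.40 ± 0.57).

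The ER held the highest log2 fold changes of the whole set. HSPA5 (BiP), the HSP70 of the ER, had a summed level of 6.8 to 579 TPM with a median of 181 in food-intake fish, against 11.2 to 85.8 TPM with a median of 35.2 in no-food-intake fish. Its main unigene DN30382_c2_g5 ranged over 3.83 to 384 TPM with a median of 114 in food-intake fish, against 6.68 to 52.6 TPM with a median of 25.5 in no-food-intake fish. Food intake 1 to 5, at 67.5 TPM or more, all lay above the highest no-food-intake library, and food intake 6, at 3.83 TPM, lay below the lowest. The log2 fold change was 1.87 ± 0.80 (limma unadjusted p = 0.031, adjusted p = 0.774). With each library left out it ran from 1.42 to 2.68, the highest without food intake 6. The second HSPA5 unigene DN35207_c0_g2, named after its values were seen, had 1.77 ± 0.77 (limma unadjusted p = 0.0343). Neither had a limma unadjusted p under 0.05 when food intake 1, 3, 4 or 5 or no food intake 1 or 3 was left out.

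HSP90B1 (GRP94), the HSP90 of the ER, had the same highest and lowest library as HSPA5, food intake 1 and food intake 6. Its summed level was 25.4 to 594 TPM with a median of 259 in food-intake fish, against 36.9 to 111 TPM with a median of 77.3 in no-food-intake fish. The more abundant unigene, DN31538_c2_g2, ranged over 11.8 to 429 TPM with a median of 206 in food-intake fish, against 20.2 to 78.2 TPM with a median of 60.2 in no-food-intake fish (log2 fold change 1.32 ± 0.69, limma unadjusted p = 0.071). The longer one, DN31378_c0_g2, had values of 3.97, 46.6 and 154 TPM in food-intake fish (lowest, median and highest library) and 3.6, 9.45 and 22.8 TPM in no-food-intake fish, and its log2 fold change was 1.75 ± 0.65 (limma unadjusted p = 0.0155, adjusted p = 0.774). Food intake 4 was the one of the first 5 whose DN31538_c2_g2 level, 52.1 TPM, lay within the no-food-intake range. The remaining 3 HSP90B1 unigenes, short pieces matched to mammals, had log2 fold changes of -0.28 to -0.11.

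As a share of its whole class in the same library, each of the 2 ER chaperones lay above the highest no-food-intake value in 5 of 6 food-intake fish. Each class total holds the ER chaperone itself but is mostly cytosolic, so a lower cytosolic level also raises the share. Cytosolic HSP90 members averaged 1242 ± 850.5 TPM in food-intake fish and 2135 ± 1245 TPM in no-food-intake fish (SD, n = 6 each). Of the TPM of the HSP90 class, HSP90B1 made up 2.51% to 29.3% with a median of 21.4% in food-intake fish, against 2.04% to 5.38% with a median of 3.19% in no-food-intake fish. Here food intake 6, at 6.53%, lay above all no-food-intake libraries, and food intake 4, at 2.51%, lay among them. Of the TPM of the HSP70 and HSP110 class, HSPA5 made up 0.94% to 17% with a median of 6.6% in food-intake fish, against 0.396% to 1.95% with a median of 1.07% in no-food-intake fish. In this share food intake 6, at 0.94%, was the library that lay among the no-food-intake fish.

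Among ER J-domain proteins, DNAJB11, DNAJC3, DNAJB9 and DNAJC10 had food intake 1 highest and food intake 6 lowest. DNAJB14 and DNAJB12 had another library highest. So did DNAJC1, DNAJC14 and DNAJC25, named after their values were seen, which were highest in food intake 3, 5 and 6. DNAJC25 stood at 4.96 TPM in food intake 6, the reverse of the other pattern. DNAJB11 (ERdj3), which carries nascent clients to BiP, ranged over 0.05 to 16.8 TPM with a median of 4.42 in food-intake fish, against 0.13 to 1.74 TPM with a median of 0.745 in no-food-intake fish (DN28864_c0_g1), a log2 fold change of 1.36 ± 0.51 (limma unadjusted p = 0.0153, adjusted p = 0.774). DNAJC3 (p58IPK) ranged over 0.52 to 17.3 TPM with a median of 4.42 in food-intake fish, against 0.88 to 2.96 TPM with a median of 1.41 in no-food-intake fish (DN32126_c1_g1; log2 fold change 1.10 ± 0.44, limma unadjusted p = 0.0226). DNAJB9 (ERdj4), an inducible partner, ranged over 0.88 to 13.5 TPM with a median of 3.52 in food-intake fish, against 1.15 to 3.55 TPM with a median of 1.55 in no-food-intake fish (DN31274_c1_g5; log2 fold change 0.87 ± 0.40, limma unadjusted p = 0.0441). In each of DNAJB11, DNAJC3 and DNAJB9, 5 of 6 food-intake libraries lay above the no-food-intake median. The reductase DNAJC10 (ERdj5, DN30374_c1_g2) and the membrane protein DNAJB14 (DN30026_c2_g1) differed less, with log2 fold changes of 0.42 ± 0.39 and 0.17 ± 0.28. Food intake 3 was the highest library of DNAJB14, at 6.88 TPM. DNAJB12 (DN25489_c0_g1), named after its values were seen, stood at -0.27 ± 0.26, with all 6 food-intake libraries below the no-food-intake median and no food intake 1 highest.

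**Figure D5:**
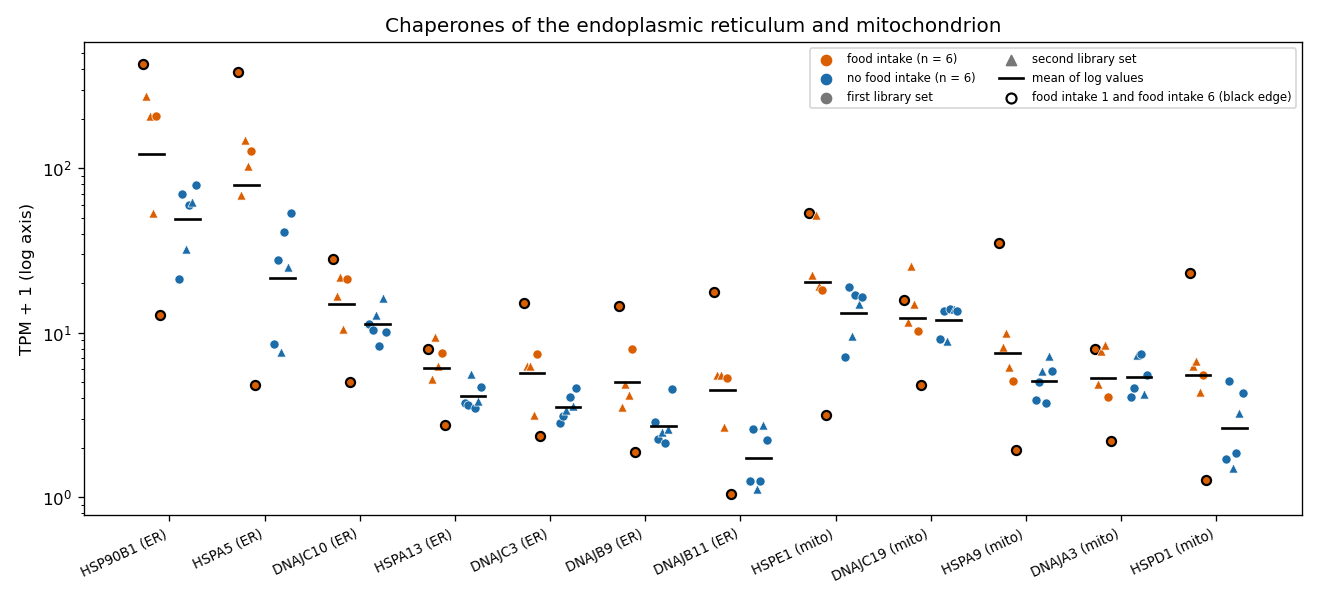
TPM + 1 (log axis) of the most abundant bony-fish-matched unigene of 7 ER and 5 mitochondrial chaperones in each library, food intake (orange) left of no food intake (blue), with circles and triangles for the first and second library set, black edges for food intake 1 and 6, and bars for the mean of log values. Food intake 1 is at or near the top and food intake 6 at the bottom of most genes shown. These genes were chosen after values were seen, out of 12 ER and 7 mitochondrial gene names. DNAJB12, DNAJB14 and DNAJC1 (log2 fold changes of -0.27, 0.17 and 0.30) are among the ER names left out.

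The ER median was 0.52 in the first library set and 0.53 in the second, where the medians of all unigenes were -0.19 and 0.18, and leaving out food intake 6 gave 0.63, leaving out food intake 1 gave 0.36. The number of ER members at an unadjusted p under 0.05 was 6 with all libraries, 10 without food intake 6 and 2 without food intake 1, all higher in food-intake fish. Over all unigenes 8.36% were higher at that threshold without food intake 6 and 1.67% without food intake 1. Food intake 1 was the highest library for 12 of the 20 tested ER members and food intake 6 the lowest for 14. With the ribosomal-RNA-like unigenes removed and the rest rescaled, the ER median was 0.64, against 0.06 for all unigenes. The list of gastric gland genes, whose products pass through the ER, had a median log2 fold change of 0.55 over 25 unigenes, -0.19 in the first library set and 1.65 in the second. The lists of mucous surface and pancreas markers, also secretory, had all 5 of their tested unigenes above 0 in each case, with medians of 0.42 and 0.89, or 0.85 and 0.27 without food intake 6. The part of these cells in the ER chaperone values was not tested.

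The mitochondrial chaperonin HSPD1 (HSP60) and its lid HSPE1 (HSP10) had log2 fold changes above 0 in all 5 of their unigenes, with a median of 0.78, or 0.46 with 1 of 5 below 0 without food intake 1. HSPD1 (DN26812_c0_g2) ranged over 0.27 to 21.9 TPM with a median of 4.88 in food-intake fish, against 0.51 to 4.06 TPM with a median of 1.56 in no-food-intake fish. Its log2 fold change was 1.07 ± 0.52 (limma unadjusted p = 0.0556), and 5 of 6 food-intake libraries lay above the no-food-intake median. HSPE1 (DN23509_c0_g3) ranged over 2.17 to 52.5 TPM with a median of 19.8 in food-intake fish, against 6.15 to 18 TPM with a median of 14.7 in no-food-intake fish (log2 fold change 0.61 ± 0.55, limma unadjusted p = 0.28). The HSPD1 unigene with a p under 0.05, DN21579_c0_g1 (log2 fold change 1.01 ± 0.41, limma unadjusted p = 0.0242), is a piece of 225 bases whose best match is a mammal and which was listed at 0 in 3 no-food-intake libraries.

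HSPA9 (mortalin), the mitochondrial HSP70 that pulls in imported proteins, was looked at after its values were seen. Its 3 unigenes summed to 3.23 to 55.9 TPM with a median of 12.4 in food-intake fish, against 4.01 to 11.3 TPM with a median of 6.93 in no-food-intake fish, and log2 fold changes were 0.55 ± 0.49 for DN35207_c0_g3 and 0.77 ± 0.44 for DN31448_c1_g4. DN35207_c0_g3 shares an assembly component with the HSPA5 unigene DN35207_c0_g2. The J-domain proteins DNAJA3 (DN34625_c0_g2) and DNAJC19 (DN28586_c2_g2), of the matrix and the import motor, had log2 fold changes near 0, -0.01 ± 0.35 and 0.04 ± 0.36. Food intake 1 was highest in 10 of the 13 mitochondrial members and, without it, 8 of 13 were above 0, with a median of 0.10.

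Partner genes outside the name rule were counted from 4 lists, which were chosen with earlier results of these data known and give no independent support. Of 24 tested unigenes of other ER chaperones and folding enzymes, 21 had a log2 fold change above 0 (46.0% of all unigenes), with a median of 0.56, 8 were higher at an unadjusted p under 0.05 (2.48% of all unigenes) and none lower (3.79%), and none passed the adjusted threshold. The 3 with the smallest p were MANF, an ER-resident secreted factor, SDF2L1, a BiP co-factor, and HYOU1, the HSP110 of the ER. MANF averaged 14.9 ± 14.1 TPM in food-intake fish and 2.13 ± 1.35 TPM in no-food-intake fish (SD, n = 6 each; log2 fold change 1.89 ± 0.57, limma unadjusted p = 0.00428). SDF2L1 and HYOU1 had log2 fold changes of 1.70 ± 0.61 and 1.61 ± 0.58. In all 3, food intake 6 was the lowest library and food intake 1 the highest.

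Of 15 tested unigenes of mitochondrial protein quality control, 12 were above 0 (46.0% of all unigenes), with a median of 0.29. None had a p under 0.05, where 2.48% of all unigenes were higher and 3.79% lower. The proteases AFG3L2 and LONP1 and the nucleotide exchange factor GRPEL1 had log2 fold changes of 0.62 ± 0.34, 0.57 ± 0.33 and 0.61 ± 0.40. Of 27 tested unigenes of HSP90 and HSP70 partners 16 were above 0 and 11 below (46.0% and 54.0% of all unigenes), with a median of 0.17. Among them the phosphatase PPP5C stood at 0.96 ± 0.39 and the mitochondrial immunophilin FKBP8 at -0.83 ± 0.38 (limma unadjusted p = 0.0242 and 0.0427), and the HSP90 co-chaperone PTGES3 (p23) at 0.78 ± 0.39. Prefoldin, which hands actin and tubulin to CCT, was even, with 5 of 9 above 0 (46.0% of all unigenes) and a median of 0.01.

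The best database match was a bony fish for 119 of the 152 members and another organism for 33. Of these, 28 were pieces of 206 to 458 bases matched to mammals or birds. Their summed TPM was 38.9 to 69.2 in the 7 libraries of the first set and 10.7 to 17.0 in the 5 of the second, and 17 of the 28 were above 0 in all 7 libraries of the first set, while 3 of the 28 were at 0 in all 5 of the second. Over all 33 the sums overlapped, at 257 to 1599 TPM in the first set and 468 to 1322 TPM in the second. Most of these sums came from the Hspa8 unigene DN35429_c1_g5. With fish-matched members alone, chosen after values were seen, 8 members were higher and 3 lower at an unadjusted p under 0.05 of 103 tested, against 2.48% and 3.79% of all unigenes. Of 16 fish-matched ER members 15 had a log2 fold change above 0, against 46.0% of all unigenes, with a median of 0.62.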

How the data were processed

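The authors deposited 1 table of expression values per unigene for the 12 libraries, with a gene name and best database match per unigene; its unigene identifiers are those of a Trinity assembly, per the file itself. Reads were handled with cutadapt and FastQC, per the submitters' processing notes. Which program counted reads is not given in the sources used here. TPM gives no read depth, so no counting interval is given. The header names no unit; that the deposited values are TPM was read from library totals of 984119 to 992092, each just under that of full TPM.

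From these values, log2(TPM + 1) was tested per unigene with limma 3.58.1 with an intensity trend in R 4.3.3, food intake over no food intake, for the 40142 of 63567 unigenes that had at least 1 TPM in 6 or more of the 12 libraries, with Benjamini-Hochberg adjustment over all of them and a threshold of 0.05. A fold change on this scale understates that of low unigenes. Replicates are separate fish. The procedure was run on simulated independent normal values, with shifts placed only in unigenes of low spread. That run does not show what differences could be found among the more variable chaperones.

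Members and lists were chosen with earlier results of these data known. The named unigenes are all those of HSP90AB1, the 3 most abundant and the 3 with the smallest p in each class (1 per gene name), the main unigene of each CCT subunit, and up to 3 of each list of partners; exceptions are marked in the text. Alternatives were quantile normalization, no filter, a filter at 5 TPM, a pseudocount of 0.1, the replicate block, sums by gene name, the library set as a term and each set alone, removal of 7 ribosomal-RNA-like unigenes (mean of 1000 TPM or more and a correlation of 0.95 or more with 1 annotated ART2), and leaving out each library. Restriction to fish-matched members and removal of ER members were added after seeing the data. Marker lists of 7 cell types (gastric gland, mucous surface, smooth muscle, striated muscle, erythrocyte, leukocyte, pancreas) are given as summed TPM.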

Additional observations from a re-analysis of the deposited data

How the results depend on the processing

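Under every alternative run, 0 chaperone unigenes passed the adjusted threshold. The counts at an unadjusted p under 0.05, 9 higher and 3 lower, against 2.48% and 3.79% of all unigenes, moved to 14 and 5 with quantile normalization (4.07% and 4.65% of all unigenes), to 18 and 4 with the ribosomal-RNA-like unigenes removed (5.69% and 2.52%), to 2 and 6 in the first library set (1.47% and 5.93%) and to 6 and 1 in the second (4.88% and 1.47%). The higher count was 3 at 5 TPM (2.32%), 5 when summed by gene name (2.46%), 6 with a pseudocount of 0.1 (2.18%) and 3 without ER members (2.48%). Leaving out each library gave 2 to 26 higher and 2 to 7 lower; the lowest came without food intake 1 and the highest without food intake 6, where 8.36% of all unigenes were higher. The median log2 fold change of members, 0.06, lay between -0.03 and 0.18 with each library left out and was -0.23 at 5 TPM, where that of the HSP70 and HSP110 class was -0.46 against 0.28. The cause of these shifts was not tested.

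Replicate numbers did not pair the fish: correlations of same-numbered libraries ran from -0.102 to 0.108, and no library matched its own number best. With the replicate block, 7 members were higher and 2 lower (2.48% and 3.58% of all unigenes). Every replicate number occurs in both groups, so the block leaves each fold change as it was and no sign could change.

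Of 1225 alternative values of the 59 named unigenes, 1174 kept the sign and 51 had the opposite sign, in 25 unigenes. Many of these values could hardly differ. The replicate block and the lack of a filter leave each fold change as it was, and fits without 1 library share all the others. The tally is therefore no measure of stability. In the second library set, HSP90AB1 DN26217_c2_g4 was 0.007, TCP1 0.19, CCT2 0.037, CCT3 0.20, CCT5 0.10, CCT6 0.042, Hspa8 0.30, hsc71 0.31, DNAJA3 0.29, ST13 -0.16, HSPB7 -0.89, hsp30 0.66 and Hspb1 DN3237_c0_g1 0.54. In the first set, HSP90AB1 DN34689_c2_g6 was 0.078 and DN26217_c2_g8 0.027, BAG6 DN30237_c0_g1 -0.025, DNAJA1 -0.021, DNAJA4 -0.42, DNAJB5 0.30, DNAJC2 -0.12, DNAJC19 -0.43 and HSPB1 1.03. With the library set as a term, DN26217_c2_g8 was 0.016 and DNAJC19 -0.025. With quantile normalization Hspa8 was 0.035 and hsc71 0.029, and with ribosomal-RNA-like unigenes removed DNAJA3 was 0.079 and HSF2 0.04. Leaving out each library, the ranges that crossed 0 were -0.064 to 0.29 for HSP90AB1 DN26217_c2_g2, -0.457 to 0.088 for hsc71, -0.027 to 0.387 for ST13, -0.145 to 0.243 for DNAJA3, -0.098 to 0.406 for DNAJA4, -0.5 to 0.226 for DNAJB5, -0.084 to 0.162 for DNAJB6, -0.173 to 0.307 for DNAJC19, -0.421 to 0.17 for HSF2, -0.893 to 0.304 for HSPB1 and -0.209 to 0.658 for HSPB7.

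TPM gives no depth, which limits what low members show. The library sets hold 3 against 4 and 3 against 2 fish.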

Other observations

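Markers of other cell types that a stomach sample can hold differed more between single fish than between groups. The mucous surface list summed to 1136 to 12330.1 TPM in food-intake fish and 1042 to 4181 TPM in no-food-intake fish, with food intake 5 highest and all 5 tested unigenes above 0 (median log2 fold change 0.42). Smooth muscle markers summed to 2968 to 7154 TPM in food-intake fish, against 28524 TPM in no food intake 3 and 6998 TPM or less in the other no-food-intake fish. Striated muscle markers summed to 45.6 to 410.0 TPM in food-intake fish and 46.3 to 607 TPM in no-food-intake fish. Erythrocyte markers summed to 102 to 758 TPM in food-intake fish and 95.1 to 882 TPM in no-food-intake fish, highest in food intake 6 and no food intake 3. Leukocyte markers stood at 14.4 to 30.5 TPM in food-intake fish and 12.4 to 46.9 TPM in no-food-intake fish. Pancreas markers summed to 12.7 to 219 TPM in food-intake fish, highest in food intake 6, and 7.84 to 64.8 TPM in no-food-intake fish, with all 5 tested unigenes above 0 (median 0.89). Over all 7 lists, 2 of 79 tested unigenes were higher and 1 lower at a limma unadjusted p under 0.05 (2.48% and 3.79% of all unigenes) and none passed the adjusted threshold. The part of these cells in the chaperone values was not tested.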
